A study of Mus musculus with 6 samples.

Results

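The regulators and state markers of the epithelial-mesenchymal transition were followed in the mouse line AY-mICC, used to study intrahepatic cholangiocarcinoma, the tumour of the bile ducts inside the liver. The group was set by name and not by a cutoff on measured values, though with earlier results of these data known. It holds the transcription factors Snai1, Snai2, Zeb1, Zeb2 and Twist1, the cadherins Cdh1 and Cdh2, the state markers Vim and Fn1, and the splicing factor Esrp1. All 10 were found among the 55414 gene identifiers of the count table, and 9 of them had enough counts to be tested. The genotypes were control (shCon) and Copa knockdown (shCopa), with 3 RNA-seq libraries for each. All 6 came from the one line, grown in the same serum-containing medium with no further treatment. Copa encodes a subunit of COPI, the coat of vesicles that bring proteins back to the endoplasmic reticulum from the Golgi. The labels do not say whether replicates were separate cultures, nor give the hairpin sequences, so p-values describe only the spread between these libraries, which may be technical.

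In the epithelial-mesenchymal transition, cells joined into sheets by E-cadherin loosen their contacts and take on the shape and matrix of migratory cells. Factors of the SNAIL, ZEB and TWIST families drive the change: SNAIL and ZEB proteins bind E-box sequences in the promoters of epithelial genes such as Cdh1 and recruit repressor complexes. N-cadherin, vimentin and fibronectin are the classic products of the mesenchymal state, while ESRP1 keeps the epithelial splice forms of many transcripts. ZEB factors and the miR-200 family of microRNAs repress each other, and in cholangiocarcinoma the program is studied for its part in invasion.

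The miR-200 sequences are shown because Zeb1 and Zeb2, the members that rose, have a high number of matches to them in common. The 5 mature microRNAs are given from RefSeq (GRCm38.p6) with the seed, bases 2 to 8, in capitals. The microRNAs miR-200b, miR-200c and miR-429 share the first seed, and miR-200a and miR-141 share the other.
mmu-miR-200b-3p: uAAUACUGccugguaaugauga
mmu-miR-200c-3p: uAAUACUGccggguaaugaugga
mmu-miR-429-3p: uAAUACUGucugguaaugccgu
mmu-miR-200a-3p: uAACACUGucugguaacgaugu
mmu-miR-141-3p: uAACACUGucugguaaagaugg

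Matches to these seeds, CAGTATT and CAGTGTT, were counted on the sense strand of the 3' untranslated region of each gene's coding transcript (GENCODE M21). Zeb1 held 5 of the first and 4 of the other in 2404 bases, and Zeb2 also held 5 and 4, in 4944 bases. Among 2807 genes with a 3' untranslated region of 0.8 to 1.25 times the length of that of Zeb1, only Zeb1 itself had as many as 9, and among 1089 genes near the length of Zeb2 only Zeb2 did. Snai2, Fn1 and Esrp1 had 2 matches each, Snai1 had 1, and Twist1, Cdh1, Cdh2 and Vim had 0. Of 20710 genes, 25.9% had at least 1. A match is a stretch of letters and was not tested as a binding site. The first 3 matches of Zeb2 are printed with the match in capitals, on the minus strand of GRCm38.
Zeb2 chr2:44988347-44988375: aaaattttgtaCAGTGTTaaggcctaaaa
Zeb2 chr2:44988163-44988191: ctaccatacatCAGTATTttattattatt
Zeb2 chr2:44988098-44988126: ctacagtgcatCAGTATTacgattcctca

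The genes of these 5 microRNAs had 0 counts in all 6 libraries. Libraries made with an mRNA kit are not designed to hold mature microRNAs, so their levels were not measured here.

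Library totals ran from 19634938 to 24546204 estimated counts. Copa itself stood at 419.7, 517 and 527 CPM in shCon and 186, 182 and 187 CPM in shCopa, a log2 fold change of -1.40 ± 0.11 (SE; edgeR's quasi-likelihood test with Benjamini-Hochberg adjustment over 14807 genes, adjusted p = 0.000149). CPM is the count of a gene per 1000000 counts of its library, with library totals scaled by TMM, and the libraries of a group are given in the order of their replicate numbers throughout. The library shCon 1 stood apart from its group: over log2 CPM of tested genes it correlated with shCon 2 and shCon 3 at r = 0.973 and 0.972, against 0.990 between those. In shCon 1 the 20% of genes with the shortest transcripts were 0.37 above the mean of the 6 libraries on the log2 scale (median) and the 20% with the longest were at -0.34, while in the other 5 libraries these medians lay between -0.09 and 0.12. Zeb1, Zeb2 and Fn1 have long transcripts of 5801, 9124 and 8315 bases, and Twist1 and Snai1 short ones of 1628 and 1621 bases. Values with and without shCon 1 are given for several members. Whether transcript length accounts for the departures of shCon 1 in single genes was not tested.

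The label of the line was checked against lineage markers. Of 7 biliary markers 6 were tested, Krt7, Krt19, Spp1, Sox9 and Cftr among them, but Epcam, an epithelial adhesion protein carried by bile duct cells, was nearly absent at 0.790, 0.429 and 0.575 CPM in shCon and 0.177, 0.303 and 0.354 CPM in shCopa. The 7 biliary markers summed to 7632 to 10106 CPM in shCon and 5389 to 5862 CPM in shCopa. Most of that sum in both groups was the single gene Spp1, so it does not measure the 7 markers evenly. All 4 mesothelial markers passed the filter on low counts, with Upk3b at 1623 ± 56.5 TPM in shCon and 1172 ± 28.9 TPM in shCopa (TPM, CPM divided by transcript length and scaled to a sum of 1000000, a level per length), Msln at 204 ± 4.05 TPM in shCon and 139.8 ± 9.45 TPM in shCopa and Wt1 at 117 ± 20.5 TPM in shCon and 101 ± 4.57 TPM in shCopa. The 4 mesothelial markers summed to 2438 to 2984 CPM in shCon and 1731 to 1868 CPM in shCopa, most of it Upk3b. Of 8 fibroblast markers, Col1a1, Pdgfrb and Dcn were tested. Fibroblast markers summed to 184 to 223 CPM in shCon and 169 to 183 CPM in shCopa, and Col1a2, Col3a1, Lum, Thy1 and Pdgfra reached at most 0.455 CPM. Leukocyte markers summed to 1.31 to 1.81 CPM and 9.21 to 9.91 CPM, with Tyrobp at 0 in all libraries. Endothelial markers summed to 0.0822 to 0.232 CPM and 1.55 to 3.59 CPM, with Emcn and Cldn5 at 0. Hepatocyte markers summed to 8.37 to 13.3 CPM and 22.8 to 24.2 CPM, with Cyp3a11 and Fabp1 at 0. The part of other cell types in the results was not tested.

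Compared per transcript length, the mesenchymal products were by far the most abundant of the 10 genes. Vim, the intermediate filament protein of mesenchymal cells, was at 2238 ± 116 TPM in shCon and 1982 ± 86.1 TPM in shCopa (mean ± SD, n = 3 in each group). Fn1, the matrix protein fibronectin, was at 540.4 ± 233 TPM in shCon and 747 ± 28.8 TPM in shCopa. Cdh2, which encodes N-cadherin, was at 255 ± 48.4 TPM in shCon and 277 ± 5.05 TPM in shCopa. Every library of either group kept the order Vim, Fn1, Cdh2, although Fn1 in shCon 1, at 272 TPM, was below Cdh2 in other libraries. Cdh1, which encodes E-cadherin, the adhesion protein of epithelial sheets, was at 20.3 ± 4.55 TPM in shCon and 15.7 ± 1.04 TPM in shCopa, so that N-cadherin RNA exceeded E-cadherin RNA by 13.2, 12.4 and 12.2 times in shCon and by 17.1, 19.4 and 16.5 times in shCopa. The line held RNA of both cadherins in every library, with N-cadherin the higher. In bulk RNA, a change in the share of cells that express a gene and a change in RNA per cell cannot be told apart.

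Among the transcription factors the order of the levels differed between groups. In shCon, Twist1 was at 38.0, 20.4 and 20.1 TPM, Zeb1 at 12.3, 21.8 and 21.7 TPM and Cdh1 at 15.1, 22.7 and 23.3 TPM, and these 3 genes overlapped. In shCopa, Zeb1 at 31.9, 31.9 and 30.5 TPM lay above Zeb2 at 24.0, 22.1 and 21.5 TPM, which lay above Twist1 at 19.1, 19.1 and 18.3 TPM. Cdh1 came next at 16.0, 14.6 and 16.6 TPM, and none of these 4 genes overlapped another. Snai2 was lower, at 5.29 ± 0.779 TPM in shCon and 4.44 ± 0.436 TPM in shCopa, and Snai1 lowest of those tested, at 0.528 ± 0.291 TPM in shCon and 1.39 ± 0.517 TPM in shCopa. Esrp1 was not detected in shCon.

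**Figure D1:**
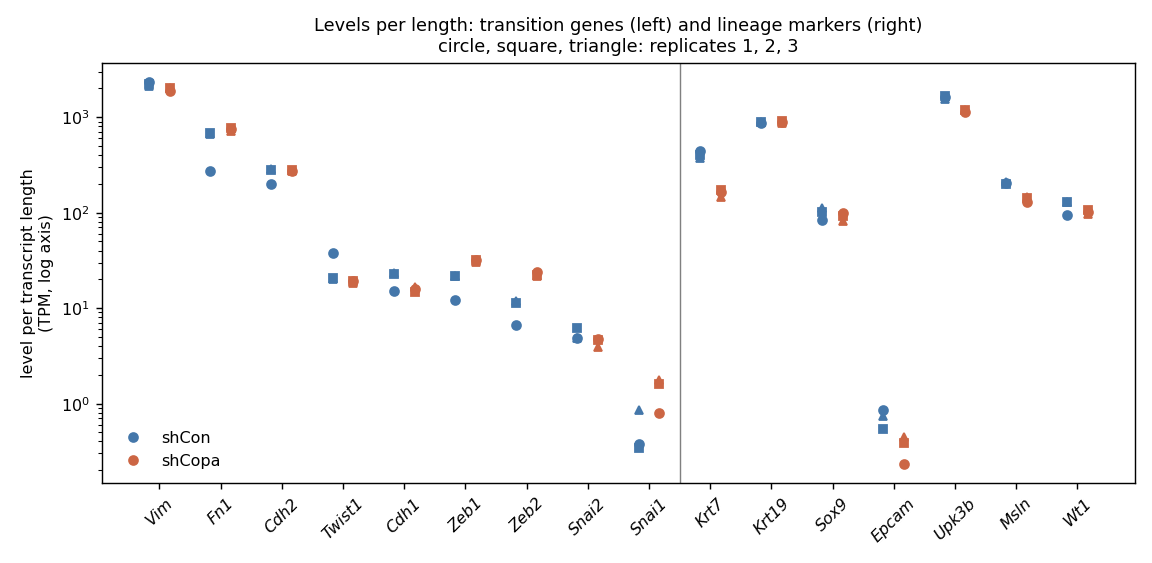
Level per transcript length in TPM, on a log axis, of 9 transition genes (left of the line, in order of their mean in shCon) and 7 lineage markers (right) in each of 3 shCon (blue) and 3 shCopa (orange) libraries; marker shapes are replicates 1 to 3. Vim, Fn1 and Cdh2 lie more than 10 times above Cdh1 in every library, and Epcam lies near the level of Snai1.

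The ZEB genes were the members that rose. Both encode zinc finger and homeodomain repressors that bind paired E-boxes and silence Cdh1 and other junction genes. Zeb2 (ENSMUSG00000026872) stood at 27.4, 39.3 and 41.7 CPM in shCon and 81.7, 77.1 and 75.9 CPM in shCopa. The groups did not overlap, and the lowest shCopa library was well above the highest shCon library. The log2 fold change was 1.11 ± 0.16 (SE), a 2.16-fold rise (edgeR's quasi-likelihood test, adjusted p = 0.00168). Zeb1 (ENSMUSG00000024238) stood at 32.5, 48.6 and 48.0 CPM in shCon and 69.2, 70.8 and 68.4 CPM in shCopa. Here too every shCopa library was above every shCon library, and the lowest of the 6 values was that of shCon 1. Its log2 fold change was 0.69 ± 0.16, a 1.61-fold rise (edgeR, adjusted p = 0.0121). Without shCon 1 the changes were 0.95 for Zeb2 and 0.52 for Zeb1 (edgeR, adjusted p = 1.02e-09 and 1.36e-06), and after correcting every library for its dependence on transcript length and GC content by offsets they were 0.88 and 0.56.

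The level of the repressor genes against their target gene differed between the groups. The ratio of Zeb1 to Cdh1 in TPM was 0.812, 0.962 and 0.933 in shCon and 1.99, 2.19 and 1.83 in shCopa. The ratio of Zeb2 to Cdh1 was 0.435, 0.494 and 0.514 in shCon and from 1.29 to 1.51 in shCopa. Zeb1 RNA was thus below Cdh1 RNA in every control library and above it in every knockdown library, and so was Zeb2. Zeb1 stayed the more abundant of the pair, but its ratio to Zeb2 was 1.87, 1.95 and 1.81 in shCon and 1.33, 1.44 and 1.42 in shCopa. These ratios are descriptions without a test. They are built from genes already called above and so add no support to those calls. Which gene of a pair is higher depends on the transcript lengths used, and repression of Cdh1 was not measured.

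**Figure D2:**
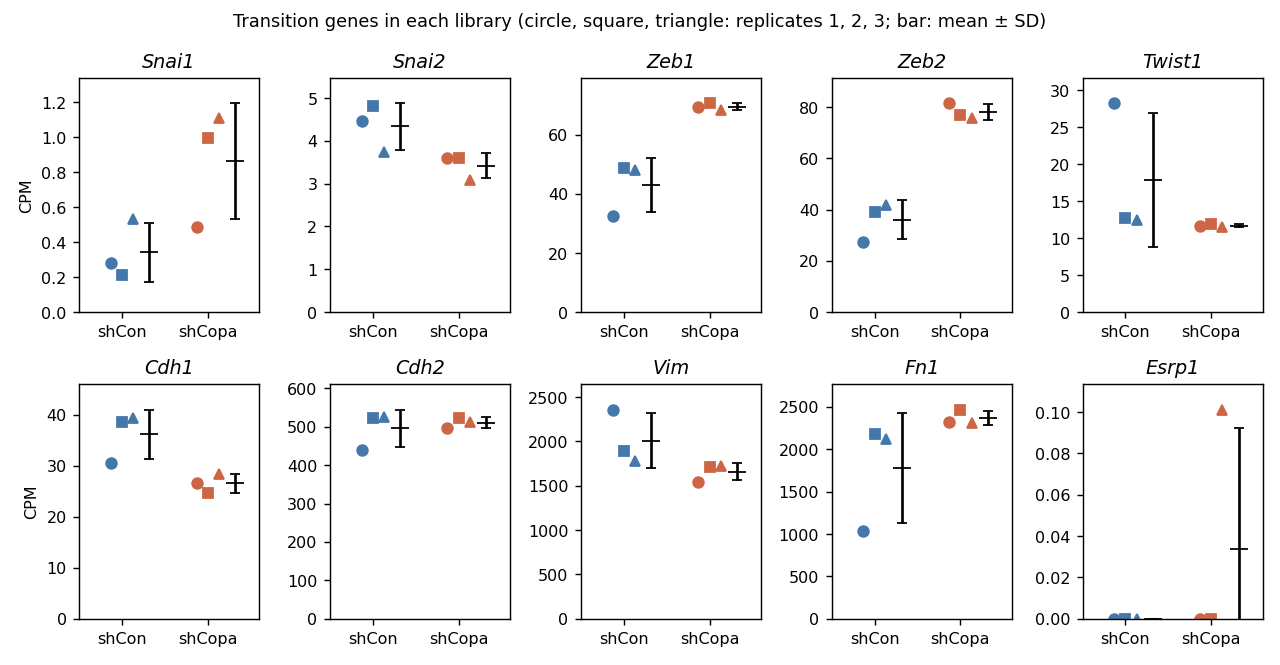
CPM of each of the 10 transition genes in 3 shCon (blue) and 3 shCopa (orange) libraries; circles, squares and triangles are replicates 1, 2 and 3, and black bars give mean ± SD. Zeb1 and Zeb2 lie higher and Cdh1 lower in all 3 shCopa libraries, Cdh2 overlaps, and the circle of shCon 1 departs from the other controls in Twist1, Vim and Fn1.

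Of the cadherins, E-cadherin fell modestly and N-cadherin did not pass the test. Cdh1 (ENSMUSG00000000303) stood at 30.6, 38.6 and 39.3 CPM in shCon and 26.5, 24.7 and 28.5 CPM in shCopa. The groups did not overlap, and shCon 1 was the lowest control library. The log2 fold change was -0.45 ± 0.13 (edgeR's quasi-likelihood test, adjusted p = 0.0285), which left 0.734 of the control level. The call was lost without shCon 2, shCon 3 or any 1 shCopa library, with adjusted p up to 0.118 in edgeR. Without shCon 1 the change was -0.56 (edgeR, adjusted p = 1.11e-05). Cdh2 (ENSMUSG00000024304) stood at 440.2, 523 and 526 CPM in shCon and 496, 524 and 513 CPM in shCopa. The groups overlapped, and its log2 fold change was 0.04 ± 0.10 (edgeR, adjusted p = 0.77). Over all alternatives its change stayed between -0.04 and 0.09. Whether the changes of the 2 cadherins differ was not tested.

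The other core factors, Snai1, Snai2 and Twist1, did not pass the test. Snai1 encodes the short-lived repressor SNAIL, usually the earliest of these factors to be induced. Snai1 (ENSMUSG00000042821) gave control counts of 6, 5 and 13 and knockdown counts of 11, 23 and 22, or 0.279, 0.215 and 0.534 CPM in shCon and 0.487, 0.994 and 1.11 CPM in shCopa. The ranges overlapped between shCon 3 and shCopa 1, and the log2 fold change was 1.31 ± 0.49 (edgeR, adjusted p = 0.0742). It passed with the length and GC offsets, at 1.51 (edgeR, adjusted p = 0.0403). Without shCon 3, the control with the most counts, it was at 1.77 and passed only barely (edgeR, adjusted p = 0.0499996). Without shCon 1 it was at 1.18 and did not pass (edgeR, adjusted p = 0.0815). These values rest on 5 to 23 counts per library.

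Snai2 encodes SLUG, the relative of SNAIL that is common in basal and neural crest cells. Snai2 (ENSMUSG00000022676) stood at 4.46, 4.81 and 3.74 CPM in shCon and 3.59, 3.59 and 3.08 CPM in shCopa. All shCopa libraries were below all shCon libraries, but by a margin smaller than the spread within groups, with a log2 fold change of -0.34 ± 0.18 (edgeR, adjusted p = 0.176). Twist1 encodes a basic helix-loop-helix factor of the mesoderm that also acts in the transition. Twist1 (ENSMUSG00000035799) stood at 28.3, 12.8 and 12.5 CPM in shCon and 11.6, 11.9 and 11.5 CPM in shCopa. The control library shCon 1 alone was more than 2 times any other, and the remaining 5 lay between 11.5 and 12.8 CPM. The log2 fold change was -0.61 ± 0.31 (edgeR, adjusted p = 0.17) with all libraries and -0.12 without shCon 1 (edgeR, adjusted p = 0.418). With the length and GC offsets it was -0.34 (edgeR, adjusted p = 0.153).

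Neither state marker passed the test with all 6 libraries, and the values of both depended on shCon 1. Vim (ENSMUSG00000026728) stood at 2359, 1889.9 and 1774 CPM in shCon and 1543, 1709 and 1721 CPM in shCopa. All shCopa libraries were lower, and shCon 1 was the highest of all. The log2 fold change was -0.28 ± 0.13 (edgeR, adjusted p = 0.127) with all libraries. Without shCon 1 it was smaller, at -0.15, yet passed the test (edgeR, adjusted p = 0.0381), and with the length and GC offsets it was -0.25 (edgeR, adjusted p = 0.0123). Fn1 (ENSMUSG00000026193) stood at 1033, 2182 and 2117 CPM in shCon and 2325, 2468 and 2309.8 CPM in shCopa. All shCopa libraries were higher, and shCon 1 was far below the other controls. The log2 fold change was 0.41 ± 0.26 (edgeR, adjusted p = 0.252), and without shCon 1 it was 0.14 (edgeR, adjusted p = 0.0343). The transcript of Vim, at 2193 bases, is not among the shortest 20%, which end at 1705 bases. That of Fn1, at 8315 bases, is among the longest 20%. With the length and GC offsets Fn1 was at 0.37 (edgeR, adjusted p = 0.102).

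Esrp1 (ENSMUSG00000040728), the epithelial splicing regulator, had 0 counts in shCon 1 to 3 and in shCopa 1 and 2, and 2 counts in shCopa 3. It could not be tested. A count of 0 allows a level of up to 0.123 to 0.139 CPM in these 5 libraries, for counting error only.

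**Figure D3:**
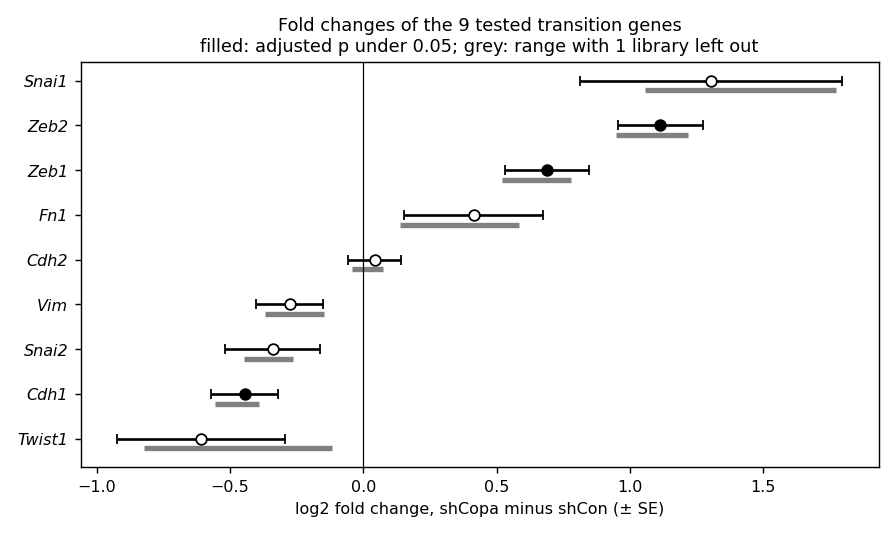
Log2 fold change, shCopa minus shCon, of the 9 tested transition genes with SE bars; filled points passed an adjusted p of 0.05 in edgeR, and grey bars give the range when 1 library is left out. Zeb2 and Zeb1 lie above 0 and Cdh1 below 0 throughout their ranges, and Fn1, Vim and Twist1 shrink towards 0 at the end that leaves out shCon 1.

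Over the group, 2 of 9 tested members rose (Zeb1, Zeb2), 1 fell (Cdh1) and 6 did not pass, with a median log2 fold change of 0.04. Over all 14807 genes tested, 36.5% differed, 18.2% higher and 18.4% lower, with a median of -0.01. Groups did not overlap for 7 of 9 members, 3 higher and 4 lower in shCopa, beside 54.0% of all genes tested. The share of members called was near the share of all genes called.

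The lists that follow hold other genes of the pathway, chosen by what they are known to do but with earlier results of these data known. Their counts are to be read beside the shares of all genes tested, of which 18.4% fell and 18.2% rose. The counts are not independent of these data. Of 17 further transition factors, 10 were tested, of which 5 fell and 1 rose, with a median of -0.36, where 18.4% of all genes fell. Foxc1, a forkhead factor of mesenchymal tissue, had the lowest fold change, at 105, 66.7 and 75.7 CPM in shCon and 12.9, 12.7 and 10.0 CPM in shCopa, with every knockdown library far below every control. Its log2 fold change was -2.79 ± 0.20 (edgeR, adjusted p = 0.000113). Twist2, the close relative of Twist1, stood at 28.1, 15.8 and 13.5 CPM in shCon and 7.26, 6.70 and 6.32 CPM in shCopa and fell, with a log2 fold change of -1.50 ± 0.28, or -1.12 without shCon 1. The homeobox gene Msx1 (-1.04 ± 0.21), Sox4 (-0.40 ± 0.09) and the forkhead gene Foxq1 (-1.22 ± 0.34) fell as well, and the bone factor Runx2 rose (0.39 ± 0.10). The calls of Sox4, Foxq1 and Runx2 were lost without shCopa 2 or shCopa 3, those of Foxq1 and Runx2 also without shCopa 1 and that of Runx2 also without shCon 3, and Foxq1 was at -0.77 without shCon 1. The number that fell was 7 without shCon 1 and 3 without shCopa 2 or shCopa 3. These are factors of the mesenchymal program, and those that passed mostly fell while the ZEB genes rose.

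TWIST proteins bind DNA with E proteins, and ID proteins keep E proteins from doing so. Of these 7 genes 4 fell and 0 rose, where 18.4% of all genes fell. The E protein genes Tcf3 and Tcf4 fell, with log2 fold changes of -1.10 ± 0.11 and -1.05 ± 0.18, from 73.9 ± 8.39 to 34.4 ± 1.02 CPM and from 33.9 ± 7.99 to 16.3 ± 0.553 CPM. The inhibitors Id2 (-0.56 ± 0.14) and Id4 (-1.44 ± 0.42) fell too, but each call was lost without shCopa 2 or shCopa 3, that of Id2 also without shCopa 1, and that of Id4 also without shCon 2 or shCon 3. Both partners and inhibitors thus were among those that fell, and Tcf12, Id1 and Id3 did not pass. Without shCon 1, 2 of the 7 rose.

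Of 19 genes of the repressor complexes that SNAIL and ZEB recruit, 5 fell and 1 rose. The share called was not above the 36.5% of all genes tested that differed. Smarca4, the BRG1 ATPase that ZEB1 binds, stood at 209, 253 and 245 CPM in shCon and 109.5, 112 and 113 CPM in shCopa (-1.08 ± 0.10), and Hdac3, a histone deacetylase, went from 111 ± 22.3 to 69.0 ± 3.59 CPM (-0.69 ± 0.15). Ehmt2, the histone methyltransferase G9a, the LIM protein gene Ajuba and Ctbp1, the ZEB corepressor, fell, with log2 fold changes of -0.42 ± 0.09, -0.40 ± 0.11 and -0.48 ± 0.15, and the scaffold gene Sin3a rose by 0.50 ± 0.11. These last 4 calls were lost without shCopa 3, those of Ajuba, Ctbp1 and Sin3a also without shCopa 2, and those of Ajuba and Ctbp1 also without shCopa 1. Without shCon 1, 8 fell and 5 rose, and without shCopa 1, 2 or 3 the number that fell was 3, 3 and 2.

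SNAIL protein is phosphorylated by kinases with differing effects, marked for destruction by ubiquitin ligases and rescued by small phosphatases. Of 14 genes of this kind, 5 fell and 1 rose, where 36.5% of all genes tested differed. The phosphatase genes Ctdspl, Ctdsp2 and Ctdsp1 fell together, to under 50% of control. Ctdspl stood at 49.4, 51.4 and 54.1 CPM in shCon and 14.5, 13.5 and 12.3 CPM in shCopa (-1.94 ± 0.10), Ctdsp2 went from 120.2 ± 1.27 to 48.0 ± 0.837 CPM (-1.32 ± 0.08), and Ctdsp1 changed by -1.02 ± 0.11. The kinase genes Lats2 (-0.86 ± 0.10) and Csnk1e (-0.54 ± 0.08) fell, and Prkd1, another kinase that phosphorylates SNAIL, rose from 8.50 ± 0.536 to 17.3 ± 0.467 CPM (1.03 ± 0.11). All 6 calls passed in each fit with 1 library left out, and without shCon 1 the number that rose was 4.

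Factors that hold cells in the epithelial state mostly fell. Of 13 listed, 8 were tested, 6 fell and 1 rose, with a median of -0.84, where 18.4% of all genes fell. The forkhead genes Foxa1 and Foxa2, the Kruppel-like gene Klf4 and the ETS gene Ehf each fell: Ehf stood at 228, 300.4 and 336 CPM in shCon and 124, 116 and 96.1 CPM in shCopa (-1.36 ± 0.17), Foxa1 went from 20.6 ± 1.56 to 9.89 ± 0.979 CPM (-1.06 ± 0.13), Foxa2 from 18.4 ± 2.83 to 8.22 ± 0.731 CPM (-1.16 ± 0.15) and Klf4 from 58.8 ± 5.70 to 32.1 ± 1.99 CPM (-0.87 ± 0.11). Elf3 (-0.48 ± 0.13) also fell, while Klf5 rose (0.33 ± 0.11). The calls of Elf3 and Klf5 were lost without shCon 2, shCopa 2 or shCopa 3, and that of Klf5 also without shCon 3 or shCopa 1, so that with 1 library left out it passed only without shCon 1. Grhl1 to Grhl3, Ovol1 and Ovol2, which encode classic repressors of ZEB genes, had too few counts to be tested.

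Splicing regulators went both ways. Of 13 tested, 4 fell and 3 rose, with a median of -0.08, where 36.5% of all genes tested differed. Esrp2, the relative of Esrp1, stood at 20.8, 28.2 and 28.1 CPM in shCon and 19.6, 19.5 and 21.8 CPM in shCopa; the ranges overlapped and the change of -0.34 ± 0.14 did not pass (edgeR, adjusted p = 0.102). The overlap came from shCon 1, and without that library the change was -0.48 and passed (edgeR, adjusted p = 0.000156). Rbm47, an epithelial splicing factor, fell from 153 ± 20.4 to 87.5 ± 3.13 CPM (-0.81 ± 0.12). Rbfox2, which favours mesenchymal splice forms, rose from 125 ± 12.7 to 185 ± 7.39 CPM (0.57 ± 0.10), and Mbnl3 fell (-0.62 ± 0.12). A further 4 passed at smaller sizes, Hnrnpm (-0.34 ± 0.09), Khdrbs1 (-0.33 ± 0.10), Mbnl1 (0.37 ± 0.10) and Srsf1 (0.29 ± 0.08), and lost the call without any 1 shCopa library, Mbnl1 and Srsf1 also without shCon 2, and Khdrbs1 and Srsf1 also without shCon 3. Without shCon 1, 8 fell and 4 rose, and without any 1 shCopa library 2 fell and 1 rose. Of 13 genes whose transcripts ESRP proteins splice, 5 fell and 0 rose in total counts, led by Fgfr1 (-0.87 ± 0.09) and Arhgef11 (-0.96 ± 0.20). The share called was near the 36.5% of all genes tested that differed. Ctnnd1, Exoc7 and Nf2 lost the call without shCon 2 or any 1 shCopa library, and Ctnnd1 and Nf2 also without shCon 3. The number that fell was 2 without shCon 2 or any 1 shCopa library, and 3 without shCon 3. Gene totals do not show isoforms, so splicing itself was not measured.

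Junction genes, the structures that E-cadherin organises, fell more often than they rose. Of 26 listed, 23 were tested, 10 fell and 3 rose, with a median of -0.31, where 18.4% of all genes fell and 18.2% rose. The tight junction genes Ocln and Tjp3 fell from 13.9 ± 0.722 to 6.71 ± 0.375 CPM (-1.05 ± 0.12) and from 5.68 ± 1.36 to 1.35 ± 0.301 CPM (-2.07 ± 0.26). The catenin genes of the cadherin complex, Ctnnb1 (-0.45 ± 0.10), Ctnna1 (-0.43 ± 0.09) and Jup (-0.43 ± 0.08), fell to 73.4%, 74.3% and 74.0% of control, the first a call lost without shCopa 1 or shCopa 2. Among genes of the desmosome and its linkers, Pkp2 rose from 44.4 ± 0.456 to 89.7 ± 3.08 CPM (1.01 ± 0.08), Pkp1 rose from the low level of 0.735 ± 0.368 to 3.20 ± 0.385 CPM (2.11 ± 0.35), and Evpl rose by 0.72 ± 0.24, a call lost without shCon 2 or any 1 shCopa library. The number that fell was 5 without shCopa 1, 6 without shCopa 2 or 3, and 17 without shCon 1.

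Of 10 other cadherin genes 6 were tested, 1 fell and 1 rose, a share near the 36.5% of all genes tested that differed. Cdh16, the kidney cadherin, was nearly level among controls at 149.5, 149 and 149 CPM in shCon and 56.6, 58.8 and 55.7 CPM in shCopa, and fell (-1.39 ± 0.08). Cdh11, the cadherin of mesenchymal cells, stood at 40.6, 54.0 and 49.0 CPM in shCon and 63.6, 64.0 and 63.5 CPM in shCopa and rose by 0.41 ± 0.12, a call lost without shCon 3 or any 1 shCopa library. All 3 shCopa libraries were below all controls for Cdh16 and above them for Cdh11.

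Genes of the contractile and mesenchymal cytoskeleton mostly rose. Of 15 listed, 13 were tested, 8 rose and 2 fell, with a median of 0.48, where 18.2% of all genes rose. Tpm1, a tropomyosin of actin cables, stood at 1316, 1442 and 1429 CPM in shCon and 2423, 2479 and 2489 CPM in shCopa and rose by 0.82 ± 0.08. Actn1, which crosslinks actin at adhesions, stood at 262, 365 and 328 CPM in shCon and 586, 651 and 618 CPM in shCopa and rose by 0.96 ± 0.13. In neither did the groups overlap. Myl9, Acta2 and Tagln, the smooth muscle genes often used as marks of the contractile mesenchymal state, rose by 2.76 ± 0.24, 2.51 ± 0.40 and 1.75 ± 0.31, all from means below 2 CPM in shCon. The intermediate filament gene Synm fell from 49.0 ± 4.79 to 15.5 ± 0.628 CPM (-1.66 ± 0.11) and Cnn1, a smooth muscle actin-binding gene, fell (-0.59 ± 0.11). The number that rose was 5 without shCopa 2 or shCopa 3.

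Fibronectin's receptors and partners in the matrix rose more often than they fell. Of 25 listed, 21 were tested, 10 rose and 2 fell, with a median of 0.43, where 18.2% of all genes rose and 18.4% fell. The fibronectin receptor is made of integrin alpha 5 and integrin beta 1: Itga5 stood at 98.0, 98.5 and 97.8 CPM in shCon and 190.0, 205 and 208 CPM in shCopa and rose by 1.04 ± 0.08, and Itgb1 rose from 1227 ± 169 to 2135 ± 58.1 CPM (0.80 ± 0.12). The collagen crosslinker gene Lox rose from 25.5 ± 3.22 to 55.8 ± 1.17 CPM (1.13 ± 0.11), whereas Loxl1 fell from 210.2 ± 38.3 to 81.8 ± 7.77 CPM (-1.36 ± 0.15) and the transglutaminase gene Tgm2 from 1001 ± 69.3 to 646 ± 19.7 CPM (-0.63 ± 0.09). The number that rose was 14 without shCon 1 and 7 without shCopa 3.

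Signals that induce the transition were split. Of 16 listed, 15 were tested, 4 rose and 4 fell, with a median of 0.05, where 36.5% of all genes tested differed. The ligand genes Tgfb3, Tgfb1 and Gas6 fell, Tgfb3 from 315 ± 8.86 to 120.4 ± 6.54 CPM (-1.39 ± 0.09), Gas6 from 1043 ± 228 to 506 ± 16.7 CPM (-1.04 ± 0.15) and Tgfb1 with a change of -0.83 ± 0.18. The receptor gene Pdgfrb fell (-1.66 ± 0.36), while the receptor genes Egfr (1.00 ± 0.21) and Tgfbr1 (0.48 ± 0.15) rose, the last a call lost without shCon 2 or any 1 shCopa library. Smad3, the transcription factor of the TGF-beta pathway, stood at 118, 138 and 134 CPM in shCon and 252, 269 and 271 CPM in shCopa and rose (1.02 ± 0.10), and Smad7, its inhibitor, from 44.5 ± 5.14 to 99.7 ± 1.87 CPM (1.16 ± 0.11). In the TGF-beta pathway, Tgfb1 and Tgfb3 fell, the ligand gene Tgfb2 was at -0.22 ± 0.09 and did not pass (edgeR, adjusted p = 0.094), and Smad3 and Smad7 rose. Without shCon 1, 7 of these genes fell.

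**Figure D4:**
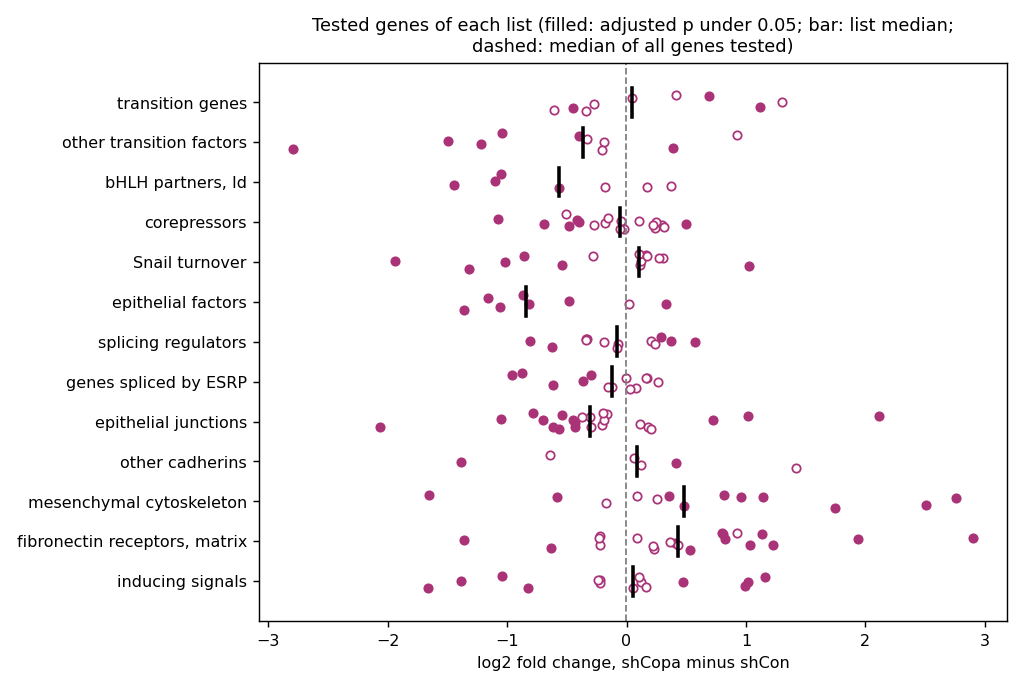
Log2 fold change, shCopa minus shCon, of each tested gene (point) in the 10 transition genes and 12 other lists; filled points passed an adjusted p of 0.05 in edgeR, black bars are list medians, and the dashed line is the median of all genes tested. Medians are lowest for epithelial factors at -0.84 and highest for mesenchymal cytoskeleton at 0.48.

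The genes most like Cdh1 and Vim across the libraries were found by Pearson's r over log2 CPM of the 6 libraries, among 9292 genes with a mean of at least 10 CPM. For Cdh1 these were Msl3 (r = 0.998), Ikbkg (0.996) and Vwa8 (0.995), and for Vim Arl6ip4 (0.997), Dhrs4 (0.996) and Oard1 (0.996). The libraries share their group and the departure of shCon 1, so these values describe likeness and carry no test.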

How the data were processed

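Per the labels' protocols, TRIzol RNA from 3 shCon and 3 shCopa samples was made into mRNA libraries and sequenced as read pairs. The authors deposited estimated counts per Ensembl gene, of which 10.6% to 11.9% per library were not whole; they were rounded here. HISAT2 2.0.5 and Trimmomatic, featureCounts, HTSeq and DESeq2 are named with the build GRCm39, per the submitters' processing notes; the program behind the counts, with its strand setting, is not given in the sources used here. Symbols came from GENCODE M21 (52081 of 55414 identifiers; 67 symbols on more than 1). Library totals were 19634938 to 24546204, and 3 counts equal 0.123 to 0.152 CPM on the TMM-scaled totals used here.

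Groups were compared with edgeR 4.0.16 in R 4.3.3 (TMM, filterByExpr, robust quasi-likelihood F test, Benjamini-Hochberg adjustment over 14807 genes, threshold 0.05). "Rose" and "fell" are used of genes past that threshold. Fold changes are log2 values of shCopa over shCon ± SE. TPM were computed from CPM and the longest protein-coding GENCODE M21 transcript. The members and lists were chosen with earlier results of these data known. The rule for naming genes took Copa and all 10 transition genes, from every list at most 4 genes of smallest adjusted p, list members that passed against the direction of the rest where they were 3 or fewer, and the 3 genes most like Cdh1 and Vim; other genes, named to complete a count or for their role in a junction or pathway, were chosen after their values were seen. Some genes that meet the rule are not reported here. Alternatives were other scaling factors and filters, DESeq2 1.42.0, limma-voom (limma 3.58.1), a replicate block, length and GC offsets, a threshold of 0.01 and each library left out. On simulated data for 14807 genes, 19.4% of 67 genes changed 1.5-fold, 71.6% of 67 changed 2-fold and 95.5% of 66 changed 4-fold were recovered, with 5 false calls among 129. Far fewer genes changed in the simulation than the 36.5% called in the data, and it held no library set apart like shCon 1. These rates therefore do not carry over to the data. Near-identical genes and genes with antisense partners may have shared reads in ways the counts do not show.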

Additional observations from a re-analysis of the deposited data

How the results depend on the processing

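The number of genes that differ was 5411, 3177 at a threshold of 0.01, and 3533 to 8439 with 1 library left out; higher in shCopa were 2691, 1590 and 1778 to 4317, and lower 2720, 1587 and 1755 to 4122. The highest counts came without shCon 1 and the lowest without shCopa 3. Of the transition genes 2 rose, 1 at a threshold of 0.01 and 2 to 3 with 1 library left out. Of them 1 fell, 0 at 0.01, 0 with the replicate block, 2 with the length and GC offsets and 0 to 2 with 1 library left out. With the offsets Snai1 at 1.51 and Vim at -0.25 passed, and at a threshold of 0.01 Zeb1 at 0.69 and Cdh1 at -0.45 did not. With 1 library left out, log2 fold changes ranged from 1.06 to 1.77 for Snai1, which passed only without shCon 3 (1.77); from -0.37 to -0.15 for Vim and from 0.14 to 0.58 for Fn1, which passed only without shCon 1 (-0.15 and 0.14); and from -0.56 to -0.39 for Cdh1, which kept its call only without shCon 1 (-0.56). Zeb1 and Zeb2 passed at 0.05 in every alternative run, with an adjusted p of up to 0.0498 in edgeR for Zeb1 without shCopa 2. The log2 fold changes of Id1 and Tjp1 turned from -0.18 to 0.22 and from 0.11 to -0.13 without shCon 1, and ranged from -0.36 to 0.22 and from -0.13 to 0.25 with 1 library left out; the cause of these changes was not tested.

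With the replicate number as a block, the log2 fold change of Cdh1 was -0.44 and lost its call. The deviations of same-numbered libraries from their groups correlated at -0.16, -0.06 and -0.11. The control library that stood apart from its group also moves the deviations of the other controls. These correlations therefore cannot decide whether the numbers pair the samples. Snai1 rests on 5 to 23 counts per library, and Esrp1, with 2 counts in all, could not be tested at this depth.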

Other observations

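Lineage markers that the report gives as levels also differed between groups. The mesothelial genes Upk3b and Msln fell in shCopa, Upk3b from 2338 ± 273 to 1577 ± 65.3 CPM (-0.57 ± 0.11, log2 fold change ± SE) and Msln from 179.7 ± 19.6 to 116 ± 9.80 CPM (-0.64 ± 0.11). The biliary keratin gene Krt7 fell from 679.9 ± 123 to 251 ± 18.7 CPM (-1.44 ± 0.14), while Krt19 was at 622, 534 and 534 CPM in shCon and 522, 556 and 533 CPM in shCopa. The chloride channel gene Cftr, a marker of bile duct cells too, stood at 6.92, 10.0 and 9.08 CPM in shCon and 14.1, 13.9 and 13.1 CPM in shCopa and rose (0.66 ± 0.16), a call lost without shCopa 1 or shCopa 2, and Spp1 fell from 6941 ± 1245 to 4614 ± 229.5 CPM (-0.59 ± 0.14), a call lost without shCopa 2 or shCopa 3. At low levels, the leukocyte gene Lyz2 rose from 1.46 ± 0.333 to 8.21 ± 0.225 CPM (2.49 ± 0.20) and the hepatocyte gene Alb rose from 9.90 ± 1.87 to 22.7 ± 0.651 CPM (1.20 ± 0.15). The leukocyte gene Ptprc had 0 to 1 counts in shCon libraries and 21 to 25 in shCopa libraries, and the endothelial receptor gene Kdr 1 to 3 and 26 to 52. Of these genes all but Krt19 passed an adjusted p of 0.05 in edgeR.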
